A study of Homo sapiens with 18 samples.

Results

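The second day of hypoxia in an APOA4-edited hepatoma line was measured by comparing 3 RNA-seq libraries of APOA4-KO cells kept for 48 h at 1% oxygen with 3 libraries of the same line kept for 24 h at 1% oxygen. These 6 libraries, out of 18 in the series, were taken by their sample labels. HepG2 is a human hepatoma cell line that makes many products of hepatocytes, and APOA4-KO is a line derived from it by CRISPR-Cas9 with 2 guide RNAs against APOA4, the gene of an apolipoprotein of triglyceride-rich and high-density lipoproteins. Both groups carry the edit and both were hypoxic, so the comparison holds 24 h of further culture at low oxygen and not the effect of the edit. Libraries of unedited HepG2 at 24 h and 48 h of the same hypoxia, 3 of each, showed the same interval in the parental line.

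Some limits of the model bear on every value below. The edited cells were grown from picked colonies, and the labels do not say whether the 3 libraries of a time point came from separate cultures, so the p-values measure the spread between these libraries. No cells at normal oxygen were sequenced at 24 h or 48 h, and therefore low oxygen, the use of the medium and the growth of the culture cannot be told apart. In bulk RNA, a change in the share of cells in a given state and a change of RNA per cell cannot be told apart either. The total count of the 6 libraries lay between 76481820 and 82260992. Among all 18 libraries, APOA4-KO 24 h replicate 1 lay farthest from its group, with a root mean square distance of 0.574 in log2 CPM (counts per 1000000 counts, scaled by TMM), against 0.516 and 0.505 for the other 24 h libraries and 0.528 to 0.559 for those at 48 h. Genes of hepatocytes were expressed in all 6 libraries. Before scaling by TMM, their 10 markers made up between 85733 and 87618 of 1000000 counts at 24 h. At 48 h they made up between 74218 and 75880. After TMM the hepatocyte sums lay closer together, at 83607 to 86217 CPM at 24 h and 79279 to 81972 CPM at 48 h. The 8 immune markers together held, before TMM, 52.5 to 65.1 of 1000000 counts at 24 h and 70.8 to 77.5 at 48 h. The 6 endothelial markers held 10.9 to 15.4 and 8.01 to 10.3, also before TMM.

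The edited gene itself was not called between the time points. APOA4 (chr11:116820700-116823306, GENCODE 29) was measured at 8.25, 7.51 and 8.04 CPM at 24 h and 7.65, 8.54 and 8.44 CPM at 48 h, and its log2 fold change was 0.05 ± 0.08 (SE, adjusted p = 0.689). Its transcript is still counted in the edited line, and a count over the gene does not show whether an RNA carries the edit. EPO, the gene of the oxygen-regulated hormone erythropoietin, lay at 13.8, 15.000 and 14.5 CPM at 24 h and 13.5, 13.6 and 12.001 CPM at 48 h (log2 fold change −0.15 ± 0.095, adjusted p = 0.244).

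Cells answer low oxygen on several levels. Hypoxia-inducible factors (HIF) are no longer destroyed and switch on genes of glucose uptake, glycolysis and blood vessel growth within hours. Under longer hypoxia, stress pathways that sense amino acids, proteins and energy join in and the synthesis of DNA slows down. Immediate early genes such as FOS, JUN and EGR1 code for transcription factors that growth and stress signals induce without new protein synthesis. In liver cells, the interleukin 6 and STAT3 pathway drives the acute phase response, in which hepatocytes secrete fibrinogen and other plasma proteins.

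The stretches upstream of the start site of 6 called genes are shown here since they hold motifs of known control elements and belong to the groups described below. The sequences are those of RefSeq (GRCh38.p14), in the direction of transcription, and end 1 base before the start site. Capitals mark, on either strand, the cyclic AMP response element core TGACGT and the TATA box TATAAA in FOS and DUSP1, the core TGACGT and the serum response element (CArG box) in EGR1, the E2F site TTGGCGC in E2F2 and the heat shock element GAANNTTC in HSPA1A and HSPA8.
FOS (chr14:75278688-75278827, plus strand): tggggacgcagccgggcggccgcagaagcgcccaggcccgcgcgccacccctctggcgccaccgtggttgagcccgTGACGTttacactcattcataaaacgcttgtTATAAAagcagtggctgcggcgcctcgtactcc
DUSP1 (chr5:172771196-172771335, minus strand): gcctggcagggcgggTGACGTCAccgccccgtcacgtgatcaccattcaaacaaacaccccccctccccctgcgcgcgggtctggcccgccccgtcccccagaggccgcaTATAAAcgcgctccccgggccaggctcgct
EGR1 (chr5:138465339-138465478, plus strand): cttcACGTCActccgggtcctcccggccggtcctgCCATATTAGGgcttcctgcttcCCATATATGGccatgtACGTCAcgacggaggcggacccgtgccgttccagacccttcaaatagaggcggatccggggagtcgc
E2F2 (chr1:23531234-23531333, minus strand): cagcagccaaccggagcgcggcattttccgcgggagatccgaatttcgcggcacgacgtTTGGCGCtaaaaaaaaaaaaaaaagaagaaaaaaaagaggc
HSPA1A (chr6:31815423-31815542, plus strand): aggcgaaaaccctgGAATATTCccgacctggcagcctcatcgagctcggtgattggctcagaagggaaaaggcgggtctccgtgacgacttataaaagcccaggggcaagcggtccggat
HSPA8 (chr11:123062137-123062216, minus strand): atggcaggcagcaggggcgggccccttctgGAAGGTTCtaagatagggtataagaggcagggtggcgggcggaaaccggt

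In FOS, TGACGT begins 64 bases before the start site and TATAAA 33 bases before it. In DUSP1, TGACGT lies on both strands, in overlapping matches that begin 125 and 123 bases before the start site, and TATAAA begins 30 bases before it. EGR1 holds 2 serum response elements, which begin 105 and 83 bases before the start site, and TGACGT on the opposite strand at 136 and 67 bases. The E2F site of E2F2 begins 41 bases before the start site, and the heat shock elements of HSPA1A and HSPA8 begin 106 and 50 bases before it. Over windows from 250 bases before to 50 bases after the start site, TGACGT was found in 8 of 23 immediate early genes with a sequence (34.8%) and in 8.32% of 27305 RefSeq promoters. The search for the serum response element used a looser pattern that accepts any base at some positions. This pattern was found in 3 of the same 23 immediate early genes (13%) and in 4.67% of all promoters. Its matches can include sequences that are not serum response elements, so these are not shares of that element. TATAAA was found in 6 of the 23 (26.1%) and in 12% of all promoters. TTGGCGC was found in 12 of 39 genes of DNA replication (30.8%) and in 3.12% of all promoters, and GAANNTTC in 8 of 18 heat shock genes (44.4%) and in 6.87%. Over all called genes, TGACGT was in 10.9% of 266 promoters of genes that rose, 9.22% of 423 promoters of genes that fell and 10.9% of 12825 promoters of tested genes. For TATAAA these shares were 13.5%, 9.46% and 6.45%. For the looser pattern of the serum response element they were 3.38%, 4.49% and 4.98%. For TTGGCGC they were 5.64%, 5.44% and 4.58%, and for GAANNTTC 4.51%, 7.09% and 4.91%. A match describes the sequence and is no evidence of binding.

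In edgeR's quasi-likelihood test over 19743 genes, a gene counted as called when its log2 fold change lay 1 or more from 0 with an adjusted p below 0.05, and "rose" and "fell" are used for such genes only. Of all tested genes 1117 were called between 24 h and 48 h (5.66%), of which 398 rose (2.02%) and 719 fell (3.64%). Without a limit on the fold change, 4320 genes were higher (21.9%) and 3840 were lower (19.4%) at an adjusted p under 0.05. These shares of all tested genes are the reference for the counts given for each list below. The median log2 fold change of all genes was −0.05. The called genes that fell were mostly of low level: among the genes with a mean of under 1 CPM 368 of 6679 fell and 104 rose, and among those with a mean of 100 to 1000 CPM 9 of 1659 fell and 39 rose. At 48 h 96 called genes had at most 3 counts in each library, and at 24 h 26 did, so that their fold changes are not interpretable as sizes. Leaving out APOA4-KO 24 h replicate 1 left 404 genes that rose and 597 that fell, and 611 genes (252 that rose and 359 that fell) were called in each of the 6 fits that left out a single one of these libraries. Scaling by library size alone, which moved the median of all genes by −0.13, gave 285 genes that rose and 1014 that fell. In the plot of fold change against level, the changed genes with many counts lie mostly above 0.

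**Figure D1:**
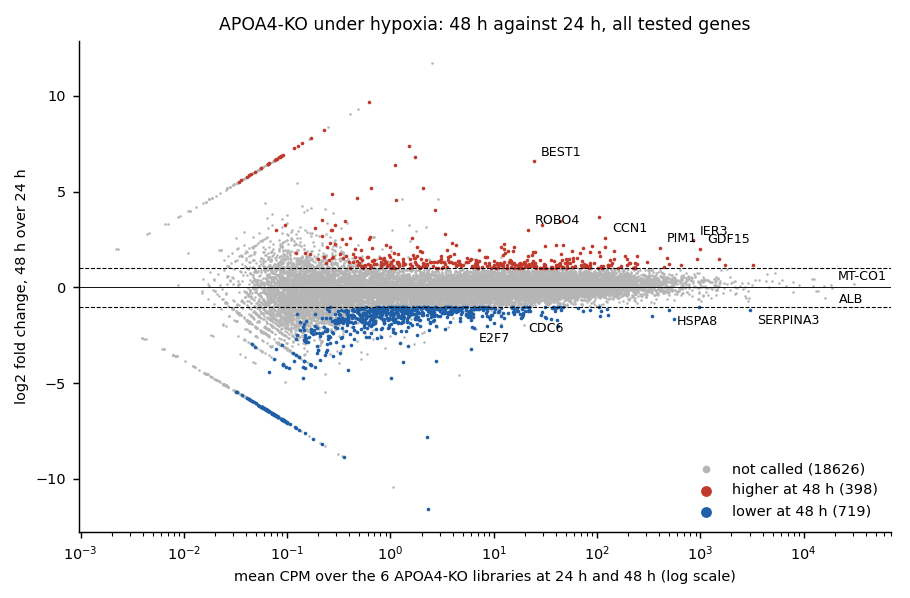
Log2 fold change from 24 h to 48 h in APOA4-KO (y axis) against the mean level over the 6 libraries in CPM (x axis, log scale). Each point is a tested gene, red if it rose (398) and blue if it fell (719), the dashed lines are the limit of 1 in absolute log2 fold change, and the diagonal bands at low level are genes without counts at 1 of the time points.

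From 24 h to 48 h, 13 of 31 tested members of the list of immediate early and AP-1 genes rose, against 2.02% of all genes, and none fell, and 21 were higher at an adjusted p under 0.05, against 21.9% of all genes. The median log2 fold change of the list was 0.77. The summed level of the list lay between 1845 and 2011 CPM at 24 h and between 5382 and 5662 CPM at 48 h. CCN1 (chr1:85580761-85583962), a secreted matricellular protein under the control of serum response factor and YAP, was measured at 37.1, 30.5 and 34.3 CPM at 24 h and 210.03, 207 and 199.9 CPM at 48 h. The 48 h libraries all lay above those at 24 h (log2 fold change 2.597 ± 0.06, SE; adjusted p = 1.5e-16), after 23.5 ± 0.83 CPM (SD, n = 3) at 0 h. IER3 (chr6:30743199-30744554), an early response gene that protects cells from apoptosis, was measured at 247, 263 and 257 CPM at 24 h and 1410.2, 1459.5 and 1414 CPM at 48 h. This is a 5.58-fold rise (log2 fold change 2.48 ± 0.03, adjusted p = 3.2e-20), and 359 of its 1356 exon bases overlap another annotated gene.

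The 3 genes of this list whose promoters are shown above rose. FOS, a subunit of AP-1, was measured at 8.03, 8.48 and 7.66 CPM at 24 h and 20.3, 19.04 and 20.7 CPM at 48 h (log2 fold change 1.31 ± 0.24, adjusted p = 0.00017). EGR1, a zinc finger factor induced by growth signals, was measured at 15.5, 15.2 and 14.5 CPM at 24 h and 42.3, 38.9 and 41.6 CPM at 48 h (1.44 ± 0.104, adjusted p = 1.6e-09). DUSP1, a phosphatase that switches off MAP kinases, was measured at 43.1, 44.6 and 50.2 CPM at 24 h and 169, 168 and 154 CPM at 48 h (1.83 ± 0.07, adjusted p = 6e-13). For each of the 3 genes all libraries at 48 h lay above all libraries at 24 h. The other AP-1 subunits that rose were FOSB with a log2 fold change of 1.75 ± 0.23, JUNB with 1.76 ± 0.08, JUN with 1.25 ± 0.04 and JUND with 1.02 ± 0.09. JUND was not called without 24 h replicate 1 (0.95) or 48 h replicate 1 (0.92). FOSL2 lay between 129.7 and 138 CPM at 24 h and between 258 and 263 CPM at 48 h and narrowly missed the limit on the fold change (0.97 ± 0.03, adjusted p = 9.6e-14). ZFP36, which destabilizes short-lived mRNAs, rose by a log2 fold change of 1.92 ± 0.06, DUSP5 by 1.61 ± 0.19 and NR4A1, an orphan nuclear receptor, by 1.18 ± 0.07. CCN2, a profibrotic relative of CCN1, was measured at 714, 797 and 846 CPM at 24 h and 2342, 2190.5 and 2133 CPM at 48 h (1.4996 ± 0.05, adjusted p = 3.2e-14). SRF, the serum response factor itself, was higher by 0.77 ± 0.04 (adjusted p = 5.4e-12).

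**Figure D2:**
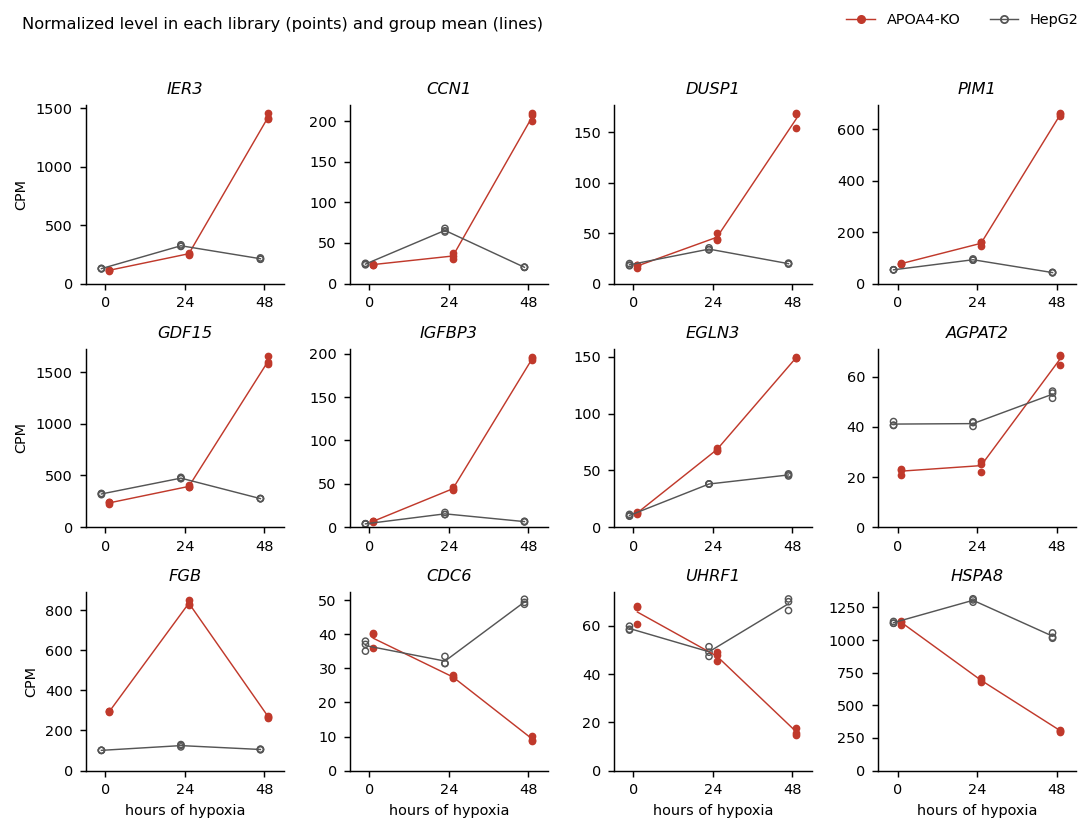
Normalized level in CPM (y axis, linear from 0) of 12 genes at 0 h, 24 h and 48 h (x axis) in APOA4-KO (filled red points) and HepG2 (open grey points). Each point is a library and the lines join the means of 3 libraries. In APOA4-KO, the 8 genes of the upper panels rise from 24 h to 48 h and FGB, CDC6, UHRF1 and HSPA8 fall, and IER3 is at 1428 ± 27.3 CPM (SD) at 48 h in APOA4-KO and at 213 ± 6.29 CPM in HepG2.

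Of 22 tested genes for secreted growth and stress factors 6 rose and none fell, against 2.02% and 3.64% of all genes. At an adjusted p under 0.05, 13 were higher and none lower, against 21.9% and 19.4% of all genes. The median log2 fold change of the list was 0.31. GDF15 (chr19:18374731-18389176), a stress hormone of the TGF-beta family that suppresses appetite, was measured at 389, 388 and 405 CPM at 24 h and 1581, 1657 and 1596 CPM at 48 h. It rose 4.09-fold (log2 fold change 2.03 ± 0.03, adjusted p = 3e-19) after 235 ± 9.502 CPM at 0 h. PDGFB, a growth factor for pericytes and stellate cells, was measured at 28.5, 27.7 and 28.4 CPM at 24 h and 119, 118 and 120.2 CPM at 48 h (2.08 ± 0.05, adjusted p = 8.9e-16). EDN1, the precursor of the vasoconstrictor endothelin-1, was measured at 5.23, 4.46 and 3.43 CPM at 24 h and 20.4, 20.3 and 21.9 CPM at 48 h (2.25 ± 0.16, adjusted p = 1.1e-09). LIF, a cytokine of the interleukin 6 family, rose by 1.29 ± 0.06, HBEGF, a ligand of the EGF receptor, by 1.07 ± 0.11, and the vasodilator gene ADM by 1.07 ± 0.07. HBEGF was not called without 48 h replicate 3 (0.98). Of 13 tested genes of the insulin-like growth factor axis 2 rose, both for proteins that bind these factors. IGFBP3 was measured at 43.1, 45.9 and 43.8 CPM at 24 h and 195, 196 and 193 CPM at 48 h (2.14 ± 0.07, adjusted p = 1.5e-14), and IGFBP4 rose by 1.096 ± 0.03. IGF2, the growth factor itself, was lower, at a log2 fold change of −0.23 ± 0.02 (adjusted p = 5e-09). Of 24 genes of the NF-kB and chemokine list, the chemokine gene CCL20 rose by 1.21 ± 0.05 and TRAF1 fell by a log2 fold change of −1.11 ± 0.41. TRAF1 was not called without 24 h replicate 2 (−0.77), nor without any one of the 48 h libraries (−1.22 to −1.02).

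Of 28 tested STAT3 and acute phase genes 5 rose and 3 fell, against 2.02% and 3.64% of all genes. The median log2 fold change of the list was 0.03. The genes that rose code for a hormone and for kinases and regulators inside the cell. PIM1 (chr6:37170203-37175426), a survival kinase induced by STAT3, was measured at 148, 161 and 160.2 CPM at 24 h and 659, 662 and 652 CPM at 48 h (2.07 ± 0.03, adjusted p = 9.8e-19). SOCS3, the feedback inhibitor of this pathway, was measured at 5.797, 6.18 and 5.75 CPM at 24 h and 25.4, 23.8 and 26.5 CPM at 48 h (2.096 ± 0.16, adjusted p = 4.4e-09). HAMP, the gene of the iron hormone hepcidin, was measured at 3.49, 4.87 and 5.08 CPM at 24 h and 19.7, 19.7 and 17.8 CPM at 48 h (2.09 ± 0.16, adjusted p = 3.4e-09). PIM3 rose by 1.92 ± 0.07 and BCL3, a coactivator of NF-kB, by 1.08 ± 0.08, or 0.98 without 24 h replicate 2. The genes that fell code for plasma proteins. FGB (chr4:154562956-154571086), the beta chain of fibrinogen, was measured at 828, 852 and 823 CPM at 24 h and 262, 271 and 269 CPM at 48 h (−1.64 ± 0.03, adjusted p = 4.9e-18), and the 48 h libraries were near the 294 ± 3.61 CPM of 0 h. FGA and FGG, the other chains, missed the limit on the fold change with −0.73 ± 0.02 and −0.72 ± 0.02 (adjusted p = 2.9e-16 and 2.8e-14). SERPINA3, alpha-1-antichymotrypsin, was measured at 4019.8, 4064 and 4363 CPM at 24 h and 1799, 1889.7 and 1850.3 CPM at 48 h (−1.17 ± 0.03, adjusted p = 2.7e-16). SAA4 fell by a log2 fold change of −1.09 ± 0.05, and 65.5% of its exon bases overlap another gene. STAT3 itself was higher by 0.27 ± 0.02 (adjusted p = 1.3e-08).

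Of 30 tested HIF targets 5 rose and none fell, against 2.02% and 3.64% of all genes, and the median log2 fold change was 0.44. At an adjusted p under 0.05, 19 were higher and 5 lower, against 21.9% and 19.4% of all genes. The summed level of the HIF targets lay between 7836 and 7909.5 CPM at 24 h and between 12189 and 12400.2 CPM at 48 h. EGLN3, an oxygen-sensing prolyl hydroxylase that marks HIF for destruction, was measured at 68.1, 70.02 and 66.95 CPM at 24 h and 150.2, 149 and 149 CPM at 48 h (1.13 ± 0.05, adjusted p = 7.4e-13). Of the other members that rose, BHLHE40, a clock repressor, rose by 1.04 ± 0.03, ADM by the value given above and ANKRD37 by 1.89 ± 0.14, with 35.2% of the exon bases of ANKRD37 shared with another gene. Among the targets with the most counts, NDRG1 and the glucose transporter gene SLC2A1 were higher by 0.45 ± 0.02 and 0.53 ± 0.02, within the limit on the fold change. PDK1, which shuts pyruvate out of the mitochondria, was lower, at a log2 fold change of −0.44 ± 0.05 (adjusted p = 8.4e-07). Of 12 tested genes of oxygen sensing 2 rose, EGLN3 and HIF3A. The main HIF alpha subunits were not called, with −0.16 ± 0.04 for HIF1A and 0.42 ± 0.02 for EPAS1, the HIF-2 alpha subunit, while HIF3A, at a low level, lay between 0.116 and 0.481 CPM at 24 h and between 1.28 and 1.61 CPM at 48 h (2.21 ± 0.5003, adjusted p = 0.0013). Of 28 glycolytic genes none was called, and 14 were higher and 5 lower at an adjusted p under 0.05. The 3 with the most counts were higher, with 0.68 ± 0.05 for ALDOA, 0.31 ± 0.02 for GAPDH and 0.23 ± 0.02 for ENO1. Other glycolytic genes of high level differed from these. LDHA was lower (−0.14 ± 0.02, adjusted p = 6.1e-06), and TPI1 (0.04 ± 0.02, adjusted p = 0.226) and PGK1 (0.02 ± 0.02, adjusted p = 0.45) were near 0.

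Of 46 tested genes of DNA replication 11 fell and none rose, against 3.64% of all genes that fell, and 41 were lower at an adjusted p under 0.05, against 19.4% of all genes. The median log2 fold change of the list was −0.69, and its summed level lay between 1849.7 and 1892 CPM at 24 h and between 1264 and 1266 CPM at 48 h. CDC6 (chr17:40287633-40304657), which loads the replicative helicase, was measured at 27.4, 27.2 and 27.9 CPM at 24 h and 10.04, 8.66 and 8.997 CPM at 48 h (−1.57 ± 0.06, adjusted p = 1.4e-13). UHRF1, which carries DNA methylation through replication, was measured at 49.01, 47.8 and 45.4 CPM at 24 h and 14.8, 17.6 and 15.6 CPM at 48 h (−1.57 ± 0.06, adjusted p = 2.6e-13). FEN1, the nuclease that trims Okazaki fragments, was measured at 27.9, 28.7 and 27.5 CPM at 24 h and 10.4, 10.9 and 9.65 CPM at 48 h (−1.44 ± 0.05, adjusted p = 1.4e-13). E2F2, whose promoter site is shown above, lay between 7.62 and 8.701 CPM at 24 h and between 3.12 and 3.82 CPM at 48 h (−1.27 ± 0.09, adjusted p = 2.6e-09). The other members that fell were CCNE2, POLE2, E2F8, MCM10, GINS1, GINS3 and GINS4, with log2 fold changes between −1.93 for CCNE2, the gene of cyclin E2, and −1.05 for GINS1 and GINS4, parts of the replicative helicase. GINS3 was not called without 48 h replicate 2 (−0.84), and GINS4 was not called without 24 h replicate 3 (−0.97) or 48 h replicate 3 (−0.94). PCNA, the sliding clamp, lay between 110.1 and 118 CPM at 24 h and between 55.04 and 58.2 CPM at 48 h, just within the limit on the fold change (−0.99 ± 0.03, adjusted p = 3.9e-14), and was called at −1.01 without 24 h replicate 1, 24 h replicate 2 or 48 h replicate 1. CDT1 and POLD1 were the members that were higher, by 0.32 ± 0.05 and 0.15 ± 0.03. E2F7, a repressor of the E2F family outside the list, had a larger decrease, with 10.9, 9.63 and 9.17 CPM at 24 h and 2.42, 2.58 and 2.04 CPM at 48 h (−2.08 ± 0.11, adjusted p = 1.6e-11).

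None of the 42 tested genes of mitosis was called, 25 were lower and 6 higher at an adjusted p under 0.05, and the median log2 fold change was −0.29. TOP2A, the topoisomerase that untangles chromosomes, and TPX2, a spindle protein, were lower at log2 fold changes of −0.28 ± 0.03 and −0.41 ± 0.03. MKI67, the proliferation marker Ki-67, lay between 133 and 141 CPM at 24 h and between 69.9 and 74.3 CPM at 48 h (−0.93 ± 0.04, adjusted p = 2.1e-12). CDKN1A, the cell cycle inhibitor p21, was higher by 0.54 ± 0.03, and the cyclin gene CCND1 by 0.35 ± 0.02. At 0 h, the means of CDC6 and UHRF1 were 38.9 ± 2.37 and 65.7 ± 4.16 CPM, above those of both later times.

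Of 20 tested heat shock genes 6 fell and none rose, against 3.64% and 2.02% of all genes. At an adjusted p under 0.05, 13 were lower and 6 higher, against 19.4% and 21.9% of all genes. HSPA8 (chr11:123057489-123063230), the constitutive HSP70 chaperone, was measured at 679, 691 and 706 CPM at 24 h and 309, 298 and 304 CPM at 48 h (−1.19 ± 0.02, adjusted p = 3e-18). It had 1134 ± 18.3 CPM at 0 h, so that its level was lower at each later time. HSPA1A and HSPA1B, the inducible copies, are nearly identical and their reads can be split between them, and both fell, with log2 fold changes of −1.499 ± 0.03 and −1.44 ± 0.03. Their partner DNAJA1 was measured at 141, 139 and 139 CPM at 24 h and 68.3, 66.4 and 71.1 CPM at 48 h (−1.03 ± 0.03), and HSPA1L and HSPH1, a nucleotide exchange factor, fell with log2 fold changes of −1.67 ± 0.35 and −1.0004 ± 0.07. HSPH1 lay at the limit and was not called without 24 h replicate 1 (−0.91), 48 h replicate 2 (−0.98) or 48 h replicate 3 (−0.96). HSP90AA1 lay between 443 and 475 CPM at 24 h and between 254 and 256 CPM at 48 h (−0.84 ± 0.03, adjusted p = 5.8e-13), and HSF1, the factor that binds heat shock elements, was higher by 0.41 ± 0.04. The heat shock element GAANNTTC was found in the promoters of HSPA1A, HSPA1B, HSPA1L, HSPA8 and DNAJA1, which fell, in those of HSPA6, HSPB1 and HSPB8, which were not called, and not in that of HSPH1, which fell. Of 25 genes of the unfolded protein response of the endoplasmic reticulum 1 fell, CRELD2, between 14.9 and 17.9 CPM at 24 h and between 7.16 and 8.54 CPM at 48 h (−1.07 ± 0.08, or −0.98 and not called without 24 h replicate 1), and 17 were lower and 6 higher at an adjusted p under 0.05, among them the chaperones HSPA5 with −0.37 ± 0.02 and CALR with −0.37 ± 0.02.

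Genes of the cytosolic ribosome were higher by a small amount. None of the 77 tested genes was called, but 74 were higher and none was lower at an adjusted p under 0.05, against 21.9% of all genes that were higher. Their median log2 fold change was 0.38 and lay at 0.26 when libraries were scaled by size alone. The summed level was between 32011 and 35379 CPM at 24 h and between 42139.6 and 43811 CPM at 48 h. RPS2 was measured at 2855, 2905 and 2922 CPM at 24 h and 3691, 3924 and 3824 CPM at 48 h (0.398 ± 0.02, adjusted p = 6.9e-12), RPL28 had the largest increase with 0.66 ± 0.04, and RPS26 was at −0.302 ± 0.14 (adjusted p = 0.101). Processed copies of these genes are frequent in the genome and can take up reads. Of 13 protein-coding genes of the mitochondrial genome 10 were lower and 1 was higher at an adjusted p under 0.05, and none was called. The median was −0.31. MT-CO1, a subunit of cytochrome oxidase, was the gene that was higher (0.12 ± 0.02, and −0.0081 with libraries scaled by size alone), and MT-CO3 was lower, at a log2 fold change of −0.296 ± 0.03. Of 53 nuclear genes of the respiratory chain 20 were higher and 1 lower, with a median of 0.12 (−0.0037 with libraries scaled by size alone) and none called.

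In the list of ATF4 and amino acid supply, 4 of 28 tested genes rose and none fell, against 2.02% and 3.64% of all genes. At an adjusted p under 0.05, 18 were higher and 3 lower, against 21.9% and 19.4% of all genes. The median log2 fold change of the list was 0.22, and 0.09 with libraries scaled by size alone. ATF4 itself was among the lower genes (−0.35 ± 0.02, adjusted p = 4.3e-10), as was SLC7A11 (−0.61 ± 0.11). ASNS, asparagine synthetase, was measured at 30.7, 30.6 and 27.4 CPM at 24 h and 71.8, 75.01 and 69.4 CPM at 48 h (1.29 ± 0.05, adjusted p = 2e-13), and 44.6% of its exon bases overlap another gene. PPP1R15A, which ends the block of translation in stressed cells, rose by 1.25 ± 0.06, the stress protein gene NUPR1 by 1.15 ± 0.06, and GDF15, a member of this list too, by the value given above. SLC38A2, a glutamine transporter gene, lay between 1199.7 and 1285 CPM at 24 h and between 2371 and 2392 CPM at 48 h (0.95 ± 0.03, adjusted p = 6.5e-15). Of 8 tested genes of the metallothionein list 3 rose, against 2.02% of all genes. MT2A, the metallothionein that binds zinc and copper in most cells, was measured at 33.7, 27.7 and 36.3 CPM at 24 h and 90.97, 80.6 and 81.001 CPM at 48 h (1.37 ± 0.09), MT1X rose by 1.33 ± 0.32 and MT1A by 2.63 ± 1.004 from counts near 0, and since these genes are close copies their reads may be split. MT1A was called in 1 of the 6 fits without a library, the one without 24 h replicate 3. In the list of NRF2 and glutathione genes, HMOX1, heme oxygenase 1, fell by a log2 fold change of −1.06 ± 0.04, while GPX3, a secreted glutathione peroxidase, was measured at 1039, 1054 and 1108 CPM at 24 h and 2400.4, 2434 and 2472 CPM at 48 h (1.19 ± 0.02) and OSGIN1 rose by 1.3998 ± 0.04.

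Few genes of glucose and lipid metabolism were called. Of 23 genes of gluconeogenesis and glycogen 3 rose and none fell, against 2.02% and 3.64% of all genes. PCK1, the rate-limiting enzyme of gluconeogenesis and the only called gene among the 18 that the study names for this experiment, was measured at 65.97, 67.6 and 70.4 CPM at 24 h and 133, 139 and 143 CPM at 48 h (1.02 ± 0.12, adjusted p = 8.1e-07). The CREB coactivator gene CRTC2 rose by 1.08 ± 0.05 and SIK1, the kinase that restrains it, by 1.12 ± 0.105. PCK2, the mitochondrial isoenzyme, lay between 215 and 225 CPM at 24 h and between 400.1 and 424 CPM at 48 h (0.905 ± 0.03, adjusted p = 4.8e-15). Of 27 genes of cholesterol synthesis and uptake 14 were lower and 8 higher at an adjusted p under 0.05. CETP, which moves cholesteryl ester between lipoproteins, rose by 1.57 ± 0.203, and ANGPTL8, an inhibitor of lipoprotein lipase, by 1.17 ± 0.04. AGPAT2, an acyltransferase of triglyceride synthesis, was measured at 25.1, 22.1 and 26.5 CPM at 24 h and 68.9, 68.4 and 64.9 CPM at 48 h (1.46 ± 0.06), and PNPLA2, the lipase that opens stored triglyceride, at 155, 140.3 and 147 CPM at 24 h and 301, 306 and 296 CPM at 48 h (1.03 ± 0.04, or 0.997 and not called without 24 h replicate 2). SCD, the stearoyl-CoA desaturase, was lower, at a log2 fold change of −0.58 ± 0.02 and APOB, the scaffold of very-low-density lipoprotein, at −0.53 ± 0.02, both within the limit. Among the 18 genes that the study names, 9 were higher and 2 lower at an adjusted p under 0.05. The higher ones included PPARG (0.65 ± 0.08), CPT1A, the gate of fatty acid oxidation (0.42 ± 0.03), and ANGPTL4 (0.83 ± 0.06), and the lower ones were PPARA (−0.38 ± 0.05) and ACSL1 (−0.42 ± 0.06).

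Among products of hepatocytes, of 41 plasma and coagulation proteins 1 rose and 3 fell, against 2.02% and 3.64% of all genes, and 14 were higher and 20 lower at an adjusted p under 0.05, against 21.9% and 19.4% of all genes. ALB, the albumin gene, was at −0.05 ± 0.02, AHSG, the fetuin gene, was higher by 0.46 ± 0.02 and AFP, the fetal albumin, was lower, at a log2 fold change of −0.55 ± 0.03. PLG, the plasminogen gene, was measured at 14.2, 13.4 and 13.5 CPM at 24 h and 2.72, 3.73 and 3.85 CPM at 48 h (−1.99 ± 0.42, adjusted p = 0.0008), close to the 2.98 ± 0.598 CPM of 0 h. HPX, which binds heme in plasma, was measured at 30.9, 29.1 and 28.4 CPM at 24 h and 12.8, 14.2 and 14.8 CPM at 48 h (−1.08 ± 0.07). HRG, a histidine-rich plasma glycoprotein, was the member that rose, and its call held in 1 of the 6 fits that left out a library. In the complement list MBL2 and C6 fell by log2 fold changes of −1.27 ± 0.07 and −1.48 ± 0.29, and C8G rose by 1.22 ± 0.29. Of 26 hepatocyte transcription factors 2 rose and 1 fell, against 2.02% and 3.64% of all genes. At an adjusted p under 0.05, 13 were higher and 2 lower, against 21.9% and 19.4% of all genes. The member that fell was NR5A2, a bile acid regulator of low level, with a log2 fold change of −1.78 ± 0.42. It lay between 0.616 and 1.11 CPM at 24 h and between 0.158 and 0.445 CPM at 48 h. In drug metabolism, GSTA1, UGT2B4 and CYP1B1 fell with log2 fold changes of −1.44 ± 0.08, −1.38 ± 0.22 and −1.63 ± 0.403, and UGT1A1, which conjugates bilirubin and shares exons with its neighbours, rose by 1.29 ± 0.18. AKR1D1, the reductase of bile acid synthesis, fell by a log2 fold change of −1.21 ± 0.09.

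Where the group with the higher level averaged 500 counts or more, 159 genes that rose and 86 that fell were called in every fit that left out a library, with no overlap between the groups, as was seen for 48.7% of all tested genes. The largest increase of these was in ROBO4, a receptor of endothelial cells, at 4.48, 5.05 and 4.47 CPM at 24 h and 38.3, 37.7 and 37.9 CPM at 48 h (3.02 ± 0.21, adjusted p = 7.5e-10), with 16.9% of its exon bases shared with another gene. SLC16A6, a transporter of ketone bodies, was measured at 13.4, 15.2 and 14.03 CPM at 24 h and 66.1, 64.3 and 67.2 CPM at 48 h (2.21 ± 0.09). ANKRD1, a target of YAP, rose by 2.205 ± 0.11, DUSP8, a phosphatase of stress kinases, by 2.18 ± 0.07 and NR1D1, a repressor of the circadian clock, by 2.14 ± 0.06. ALPL, tissue-nonspecific alkaline phosphatase, rose by 2.24 ± 0.24 and lay between 0.782 and 2.38 CPM at 24 h and between 6.28 and 8.34 CPM at 48 h. Among the largest decreases besides those of E2F7 and PLG were those of the long non-coding RNA LINC00242, between 9.85 and 11.6 CPM at 24 h and between 2.33 and 2.53 CPM at 48 h (−2.13 ± 0.16) and the amino acid transporter gene SLC6A14, between 52.2 and 55.95 CPM at 24 h and between 15.2 and 19.96 CPM at 48 h (−1.66 ± 0.12). COL2A1, a collagen of cartilage, fell by a log2 fold change of −1.61 ± 0.08, and KCNQ1OT1, an imprinted antisense RNA, and CLSPN, claspin of the replication checkpoint, fell with log2 fold changes of −1.62 ± 0.096 and −1.72 ± 0.205. CLSPN was measured at 12.3, 8.31 and 7.35 CPM at 24 h and 3.96, 2.096 and 2.48 CPM at 48 h, with the highest value in 24 h replicate 1.

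The same interval was measured in HepG2. There 418 genes were called (2.12%), of which 136 rose (0.689%) and 282 fell (1.43%). Of the 398 genes that rose in APOA4-KO 7 rose and 29 fell in HepG2, and of the 719 that fell 24 fell and 17 rose. The 7 genes that rose in both lines were 1.76% of those that rose in APOA4-KO and 5.15% of those that rose in HepG2, and the 24 that fell in both were 3.34% and 8.51% of the genes that fell. Across all tested genes the log2 fold changes of the lines had a Pearson correlation of 0.02 and a Spearman correlation of −0.04, as a description over genes, which are not independent. The lines share no library. The test of the difference between the intervals called 1712 genes (8.67%), with 777 more positive (3.94%) and 935 more negative (4.74%) in APOA4-KO, and 676 of the 1117 genes called in APOA4-KO were among them, 281 that rose and 395 that fell. All 13 immediate early genes that rose in APOA4-KO were among the 18 members of that list whose change was more positive there, and all 11 replication genes that fell were among the 28 members whose change was more negative. Both tests use the same APOA4-KO libraries, so genes selected for a large change there tend to be called for the difference too. These overlaps are a description and no separate evidence. In HepG2, CCN1 was measured at 63.5, 67.96 and 64.99 CPM at 24 h and 20.1, 19.9 and 20.2 CPM at 48 h (log2 fold change −1.71 ± 0.06, adjusted p = 7.9e-14) and CDC6 at 31.5, 31.4 and 33.5 CPM at 24 h and 50.3, 48.9 and 49.4 CPM at 48 h (0.62 ± 0.05, adjusted p = 4.7e-08). The log2 fold change in APOA4-KO minus that in HepG2 was 4.304 ± 0.08 for CCN1 and −2.198 ± 0.08 for CDC6 (adjusted p = 1.5e-17 and 1.4e-13). Genes for which the difference was not called included ADM, which rose in HepG2 too (1.36 ± 0.07), and SERPINA3, which was lower there at −0.996 ± 0.03. Mitochondrial transcripts had a lower median in HepG2, at −0.76, than in APOA4-KO, and glycolytic genes a nearly equal one, at 0.19. Among the largest differences, besides genes named above, were a more positive change of DEPP1 (3.41 ± 0.04), MUC5B (3.81 ± 0.27) and G6PC1, glucose-6-phosphatase (4.12 ± 0.09, with −3.42 in HepG2), and a more negative change of SSTR3 (−3.58 ± 0.17) and FAM111B (−3.205 ± 0.26).

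**Figure D3:**
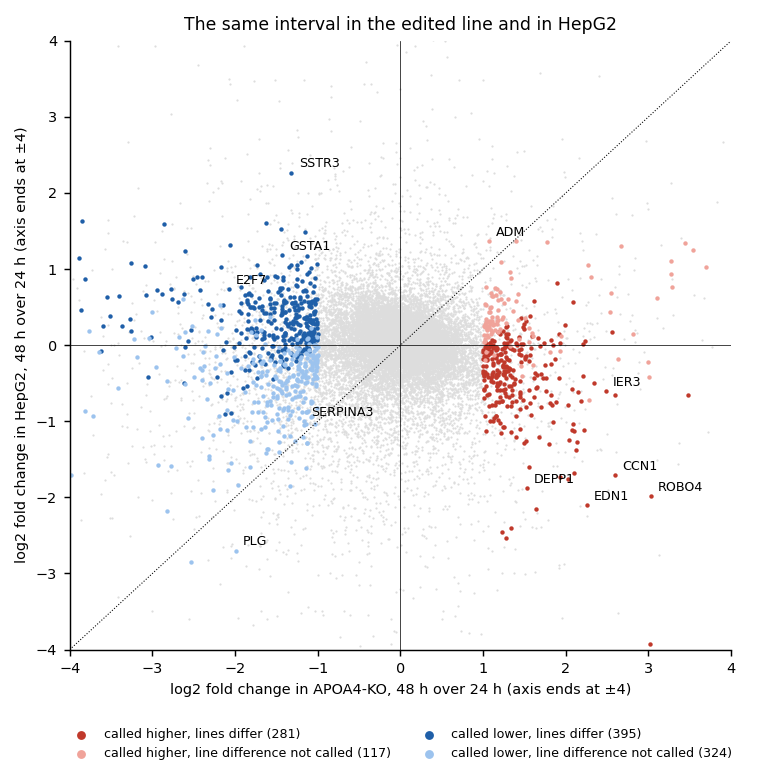
Log2 fold change from 24 h to 48 h in APOA4-KO (x axis) against that in HepG2 (y axis). Each point is a tested gene, coloured if it was called in APOA4-KO and darker if the difference between the lines was called too (281 genes that rose and 395 that fell), the dotted line marks equal changes, and genes beyond the axes are not drawn. ADM and PLG lie in the corners where both lines moved the same way, and CCN1, IER3 and E2F7 do not.

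Some called genes rest on libraries that disagree within a group. The summed level of 5 erythroid markers, genes of red blood cells, was 4.97, 63.5 and 16.4 of 1000000 counts in the 24 h libraries and 269.97, 169.8 and 469.4 in those at 48 h. The 3 APOA4-KO libraries at 0 h held 489, 127 and 355. HBA1 and HBA2, nearly identical alpha globin genes, were called with log2 fold changes of 3.27 ± 1.02 and 3.45 ± 1.07 (adjusted p = 0.015 and 0.014), and 3 of the 4 tested erythroid markers were called. Neither was called without 24 h replicate 1 (2.91 and 2.98) or 48 h replicate 3 (2.75 and 2.92), nor HBA1 without 24 h replicate 3 (3.13). PTPRC, the pan-leukocyte marker, was at 0 CPM in APOA4-KO 24 h replicate 1 and between 2.99 and 7.81 CPM in the other 5 libraries. Whether RNA of other cells has a part in any result was not tested. BEST1, a chloride channel gene, was measured at 0.593, 0.591 and 0.321 CPM at 24 h and 1.62, 1.82 and 142 CPM at 48 h, and its log2 fold change of 6.59 ± 1.89 rests on replicate 3 at 48 h, without which it was 1.78 and not called.

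**Figure D4:**
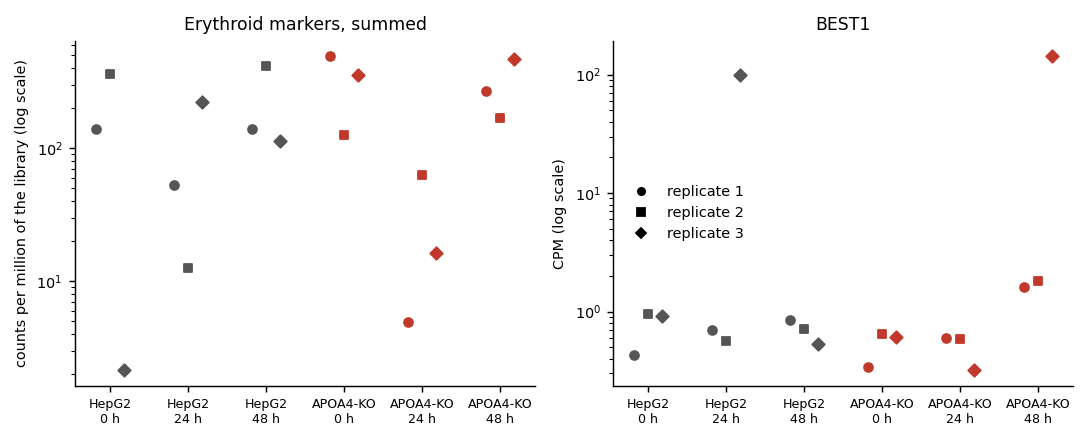
Summed counts of 5 erythroid markers per 1000000 counts (left, log scale) and the level of BEST1 in CPM (right, log scale) in each of the 18 libraries, by line and time (x axis), with the replicate number as the shape of the point. The erythroid sum varies within each group, between 4.97 and 63.5 in the 24 h libraries of APOA4-KO, and BEST1 is high in 1 library of APOA4-KO at 48 h and in 1 of HepG2 at 24 h.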

How the data were processed

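The 18 libraries were made from poly(A) RNA of HepG2 and APOA4-KO cells at 0 h, 24 h and 48 h of 1% oxygen, 3 per line and time, and groups were taken from the sample labels. Per the labels, the authors' tools were fastp, HISAT2 and StringTie with the build GRCh38.p13, whereas the methods name featureCounts as the counter. The deposited counts are whole numbers per gene and the deposited FPKM values are scaled by the authors for depth and length. Counts of 4 were 2.66 to 3.12 times as frequent as neighbouring values, so 1 read may not equal 1 count, and the counts were also divided by 4 as an alternative. Whether counting used strand is not given in the sources used here, so overlapping genes are uncertain. Library totals lay between 76481820 and 91604947 counts, and the precision this depth gives covers counting error only.

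Genes were tested in R 4.3.3 with edgeR 4.0.16 (quasi-likelihood, TMM, filterByExpr, a coefficient per group over all 18 libraries, Benjamini-Hochberg over 19743 genes), for 3 comparisons: the interval in APOA4-KO, the interval in HepG2 and their difference. CPM are counts per 1000000 counts after TMM. The value after ± for a log2 fold change is an approximate standard error (SE) derived from the test. It is the absolute log2 fold change divided by the square root of the quasi-likelihood F statistic. The procedure was tested on simulated data. Alternatives were DESeq2 1.42.0 and its size factors, library size alone, no filter or a filter of 50 counts in 3 libraries, the groups compared alone, a replicate block, counts divided by 4, limma 3.58.1 on log2(FPKM + 1), and each library left out. Same-numbered APOA4-KO libraries at 24 h and 48 h deviated together with correlations of 0.0511, 0.0233 and 0.0169.

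The members, the 50 gene lists and the rules were chosen with earlier results of these data known. Named genes were the 15 largest changes in each direction among called genes that averaged 500 counts or more in their higher group, with no overlap between groups and a call in every fit without a library. Also named were up to 5 called members per list and direction and the 3 with the most counts, the genes the study names, marker genes, and the 8 largest line differences in each direction. Genes outside these rules (such as EPO, FOSL2, PDK1, PCNA, MKI67, HSP90AA1, STAT3, PCK2, RPL28 and the further called members of the immediate early and DNA replication lists) were chosen after their values were seen. Gene positions are those of GENCODE 29 and promoter sequences those of RefSeq. Some results are not reported here.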

Additional observations from a re-analysis of the deposited data

Results flagged for a closer look

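The change from 24 h to 48 h differed between APOA4-KO and HepG2 for 1712 genes by the interaction term of the edgeR fit, and all values here are the log2 change in APOA4-KO minus that in HepG2 for genes named above that were called in both tests. The tests share the APOA4-KO libraries, so the call for the difference is not independent of the call in APOA4-KO. More positive changes in APOA4-KO were given by immediate early genes, with 4.304 for CCN1, 3.09 for IER3, 2.79 for CCN2, 2.62 for DUSP1, 2.36 for JUNB, 2.05 for EGR1, 2.04 for DUSP5, 2.01 for FOSB, 1.77 for ZFP36, 1.64 for JUN, 1.57 for NR4A1, 1.51 for FOS and 1.16 for JUND. Secreted factors and regulators of the STAT3 pathway gave 4.35 for EDN1, 3.41 for IGFBP3, 2.81 for GDF15, 2.66 for PDGFB, 2.36 for CCL20, 1.87 for HBEGF, 1.47 for LIF, 3.22 for SOCS3, 3.19 for PIM1, 2.35 for PIM3 and 1.52 for HAMP. Metabolic and stress genes gave 2.09 for ASNS, 2.12 for SIK1, 1.96 for PCK1, 1.699 for GPX3, 1.48 for PPP1R15A, 1.44 for MT2A, 1.19 for CETP, 1.16 for PNPLA2, 1.09 for AGPAT2 and 1.05 for CRTC2, and transcription factors and targets of HIF gave 3.32 for HIF3A, 1.07 for ANKRD37 and 2.75 for NR1D1. Of all 30 tested HIF targets, 3 had a more positive change and 7 a more negative one, and those 7 were not called in APOA4-KO. Further genes with a more positive change were given by 5.01 for ROBO4, 3.81 for MUC5B, 3.41 for DEPP1, 2.92 for DUSP8, 2.604 for ANKRD1, 2.196 for SLC16A6, 2.18 for ALPL, 1.33 for C8G and 1.04 for UGT1A1.

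More negative changes in APOA4-KO were given by genes of DNA replication and its checkpoint, with −2.69 for CCNE2, −2.81 for E2F7, −2.198 for CDC6, −2.09 for E2F8, −2.06 for UHRF1, −1.86 for POLE2, −1.83 for FEN1, −1.78 for MCM10, −1.49 for GINS1, −1.48 for GINS4, −1.41 for E2F2, −1.36 for GINS3, −2.33 for CLSPN and −3.205 for FAM111B. Liver products and enzymes gave −2.62 for GSTA1, −2.297 for AKR1D1, −2.29 for NR5A2, −2.09 for HPX, −1.75 for HMOX1, −1.74 for MBL2, −1.64 for SAA4, −1.41 for C6, −1.399 for FGB and −1.197 for UGT2B4. Chaperones and other genes gave −1.13 for CRELD2, −1.03 for DNAJA1, −3.58 for SSTR3, −1.502 for COL2A1 and −1.22 for LINC00242. The difference of 12.2 for BEST1 rests on 1 library of each line.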

How the results depend on the processing

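The number of genes called in APOA4-KO stayed within 1.5 times its value under every alternative except limma on log2(FPKM + 1), which called 138 genes (81 that rose, 57 that fell) there, 49 in HepG2 (32 and 17) and 485 for the difference between the lines (171 more positive, 314 more negative). Library size alone gave 492 more positive and 1621 more negative line differences (23.3% more positive against 45.4%, with a shift of the median of −0.22), and 21.9% of called genes higher in APOA4-KO against 35.6%. Leaving out a library gave 1001 to 1155 genes in APOA4-KO (373 to 404 that rose, 597 to 772 that fell), 356 to 397 in HepG2 (128 to 149 and 226 to 265) and 1666 to 1765 line differences (728 to 776 and 904 to 1013). The replicate block, in which the shared number is no stated pairing, gave 361 genes that rose and 641 that fell. Counts divided by 4 gave 364 and 666. MT-CO1 turned to −0.0081 under library size alone and −0.008 under limma on FPKM. ADM, BCL3, BHLHE40, CRTC2, HBEGF, HRG, IGFBP4, JUND, MT1A, PCK1, PNPLA2 and SIK1 were no longer called with library size alone, and MKI67 (−1.06) and PCNA (−1.12) were then called lower. Under limma on log2(FPKM + 1), 45 of 147 named genes that were checked lost their call, among them FOS, FOSB, NR4A1, EGLN3, LIF, E2F2 and E2F7. Of these 147 genes 100 were called in the main fit, and 52 were called under each of the 15 alternatives. The cause was not tested. Low counts limit the sizes given for genes under 1 CPM.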

Other observations

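A few genes in lists not described above were called in APOA4-KO between 24 h and 48 h, where 2.02% of all genes rose and 3.64% fell, and 21.9% were higher and 19.4% lower at an adjusted p under 0.05. TFEB, the master regulator of lysosome genes, was measured at 10.5, 8.14 and 12.4 CPM at 24 h and 30.7, 34.8 and 32.4 CPM at 48 h (edgeR log2 fold change 1.66 ± 0.102, adjusted p = 1.8e-10), and was the only one of 34 tested genes of autophagy and mitophagy to be called. Of 23 histone demethylases, enzymes that partly depend on oxygen, KDM7A and KDM6B rose by 1.11 ± 0.06 and 1.04 ± 0.05, and 12 were higher and 6 lower at an adjusted p under 0.05. Of 24 p53 targets 1 rose, PLK3, a stress kinase, by 1.44 ± 0.07, and 10 were higher and 9 lower at an adjusted p under 0.05.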
